A study of Rattus norvegicus with 13 samples.

Results

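Blood and lymphatic endothelial genes were examined in mammary carcinomas of irradiated rats and in normal mammary tissue. The 41 genes were chosen by name as markers and regulators of blood and lymphatic vessels, with earlier results of these data known. Their counts beside the shares over all genes are therefore no independent test. The 41 genes were matched to array probes by gene symbol. Of these, 33 had a probe and 32 were tested, beside 25344 genes with a tested probe in all. Vwf, Robo4, Egfl7, Ptprb, S1pr1, Mmrn2, Ecscr and Dll4 had no probe with a matching symbol, and the probe of Prox1 was not well above background on any array.

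The tissues came from female rats of the outbred Sprague-Dawley stock, each hybridised to a 1-colour Agilent array of rat genes. The IR-3W group held 4 carcinomas of rats given 2 Gy of 137Cs gamma rays to the whole body at 3 weeks of age, before puberty. The IR-7W group held 6 carcinomas of rats given the same dose at 7 weeks of age, after puberty. The dose rate was 0.6 Gy per minute, from 9 weeks on the rats ate a diet holding 23.5% corn oil, and carcinomas were collected at 50 weeks. The normal group held 3 mammary tissues of non-irradiated rats, which the labels call 7 weeks old in one place and matched in age in another, and whose diet they leave unsettled. No carcinoma of non-irradiated rats was analysed here, so irradiation and tumour formation cannot be told apart in the comparisons with normal tissue. Separate animals are not stated for the samples of a group, so p-values reflect only how these samples vary, and that spread could be technical.

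Endothelial cells line blood and lymphatic vessels. VEGF receptors drive their growth and sprouting, angiopoietins acting on the Tie receptors steady or loosen the vessel wall, and cadherin and claudin junctions hold the layer closed. Their identity is kept by transcription factors of the ETS and SOX families, with Prox1 setting the lymphatic fate. The mammary gland is embedded in a fat pad rich in capillaries, and a carcinoma draws on and remodels such vessels.

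RefSeq promoters of assembly GRCr8, from 250 bases before to 50 bases after the gene start, were at hand for 24 of the 41 genes. The core AGGAAG, bound by ETS factors such as Erg, was searched on both strands and lay in 15 of these 24 windows (62.5%), against 34.3% of the 27457 windows of the table. The core AACAAT, a form bound by SOX factors, lay in 2 of 24 (8.33%, against 11.6% of all windows), and the GATA core AGATAA in 1 of 24 (4.17%, against 11.3%). None of these cores contains another, and a match describes letters, not binding. The 250-base stretches upstream of 4 gene starts are printed 5′ to 3′ on the gene's strand, with ETS cores in capitals (CTTCCT is the core on the opposite strand). Emcn (chr2:228564289-228564538, plus strand), Plvap (chr16:18231280-18231529, minus strand) and Nos3 (chr4:11706582-11706831, minus strand) are shown because they were lower in IR-7W carcinomas and hold the core. Esm1 (chr2:46609003-46609252, plus strand) is shown because it was higher in both carcinoma groups and has none.
Emcn: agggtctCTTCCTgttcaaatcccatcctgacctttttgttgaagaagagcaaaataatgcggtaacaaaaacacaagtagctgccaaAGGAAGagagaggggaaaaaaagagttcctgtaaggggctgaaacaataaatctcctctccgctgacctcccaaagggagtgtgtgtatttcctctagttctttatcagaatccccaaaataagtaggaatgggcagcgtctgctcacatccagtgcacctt
Plvap: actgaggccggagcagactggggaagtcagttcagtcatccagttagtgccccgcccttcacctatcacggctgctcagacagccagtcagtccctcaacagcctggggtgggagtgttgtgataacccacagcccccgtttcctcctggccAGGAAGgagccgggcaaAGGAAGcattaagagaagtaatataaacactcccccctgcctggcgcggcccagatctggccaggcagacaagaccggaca
Nos3: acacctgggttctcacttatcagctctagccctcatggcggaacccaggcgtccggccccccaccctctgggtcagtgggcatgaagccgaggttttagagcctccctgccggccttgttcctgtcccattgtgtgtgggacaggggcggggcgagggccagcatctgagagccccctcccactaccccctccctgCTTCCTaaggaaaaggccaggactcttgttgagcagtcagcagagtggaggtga
Esm1: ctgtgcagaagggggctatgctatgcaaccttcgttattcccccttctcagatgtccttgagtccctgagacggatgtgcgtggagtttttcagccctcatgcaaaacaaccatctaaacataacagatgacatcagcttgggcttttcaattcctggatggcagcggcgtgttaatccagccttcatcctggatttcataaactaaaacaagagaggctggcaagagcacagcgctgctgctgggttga
The cores began 243 and 162 bases before the start in Emcn, 98 and 81 bases before it in Plvap, and 54 bases before it in Nos3. Among genes with a promoter window, 7 of 9 that were lower in IR-7W carcinomas held the core, while Kdr and Cldn5 were lower and held none. The core lay in 0 of 2 that passed as higher, Esm1 and Tal1, of which Tal1 is not read as a rise below. It lay in 4 of 8 that passed the test in neither direction. A further 5 genes with a window were not tested, and 4 of these held it. Sox17, Sox18, Tek, Icam2, Rasip1 and Aplnr were lower but had no window. Whether the core goes with the direction of change was not tested.

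Levels are log2 signals minus the 75th percentile of the array, so a level of 0 equals that percentile, and they are not compared between genes. Carcinoma arrays were the brighter ones, with a percentile of 276 to 1242, against 82.3 to 179 for normal arrays, and with 58.0 to 71.0% of spots well above background, against 48.7 to 54.2%. Another scanner and a separate slide were used for the normal arrays, so scan, slide and group cannot be told apart where carcinomas are set against normal tissue. The lowest level called well above background was -7.35 to -4.60 on carcinoma arrays and -4.59 to -4.18 on normal arrays. Between 24 and 32 of the 33 genes with a probe were well above background on each array, so endothelial markers were detected in all 3 groups. In bulk tissue, fewer endothelial cells and less RNA per cell cannot be told apart. Differences below come from limma fitted over all 13 arrays with Benjamini-Hochberg adjustment over all genes and 0.05 as the threshold, and are given on the log2 scale with their standard error (SE).

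In IR-7W carcinomas, much of the endothelial set was lower than in normal tissue. Of the 32 genes tested, 15 fell, 2 passed as higher and 15 did not pass. Over all genes, 8.85% fell and 12% rose (20.8% called in all). The genes that fell included the VEGF receptor Kdr, the Tie receptors Tek and Tie1, the claudin Cldn5, the transcription factors Sox17, Sox18 and Erg, and nitric oxide synthase Nos3. Esm1 rose. Tal1, the other gene that passed as higher, is not read as a rise, because none of its normal arrays was well above background on the probe used and another of its probes had the opposite sign. The median difference of the 32 genes was -1.76 (range -3.35 to 2.58), beside -0.02 over all genes, and 28 of 32 lay below 0. In 16 genes all IR-7W arrays lay below all normal arrays and in 2 genes above them, shares that were 14% and 14.9% over all genes. Without normal array 1 there were 7 genes lower and 2 higher (3.93% and 8.06% over all genes), and without normal array 2 there were 8 lower and 1 higher (4.21% and 7.84%). Icam2, Emcn, Sox17 and Tek kept an adjusted p below 0.05 in all alternatives run for IR-7W carcinomas. The call was lost for Lyve1 in 9 of 19, Tie1 in 6 of 19, Plvap in 5 of 19 and Aplnr in 4 of 19, the replicate block among them. For Kdr, Cldn5, Eng and Erg it was lost in 3 alternatives each.

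In IR-3W carcinomas, fewer of these genes passed the test. Icam2, Sox17, Tek and Mmrn1 passed as lower and Esm1 rose, while 26 did not pass. Tal1 passed as higher and again is not read as a rise. Over all genes, 5.35% fell and 9.25% rose (14.6% called in all). The median difference of the 32 genes was -0.83 (range -3.02 to 2.49), beside -0.01 over all genes, and 24 of 32 lay below 0. In 3 genes all IR-3W arrays lay below all normal arrays and in 2 above them, against 11.4% and 13.4% over all genes. Over the alternatives run, the IR-3W call was lost for Tek in 9 of 16, Mmrn1 in 8 of 16 and Sox17 in 7 of 16. It was lost for Icam2 in 5 of 17 and for Esm1 in 4 of 17. Each of these tallies includes the replicate block, under which a loss is not read as a weaker effect. The count rested on single arrays. Without IR-3W array 3 there were 9 genes lower and 2 higher (8.63% and 11% over all genes), and without IR-3W array 2 there were 0 lower and 2 higher (4.14% and 8.4%). Without normal array 1 there were 0 lower and 1 higher (2.54% and 6.41% over all genes), and the same counts held without normal array 2 (2.16% and 6.13%). Both carcinoma groups were set against the same 3 normal arrays, so the comparisons are not independent of each other.

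**Figure D1:**
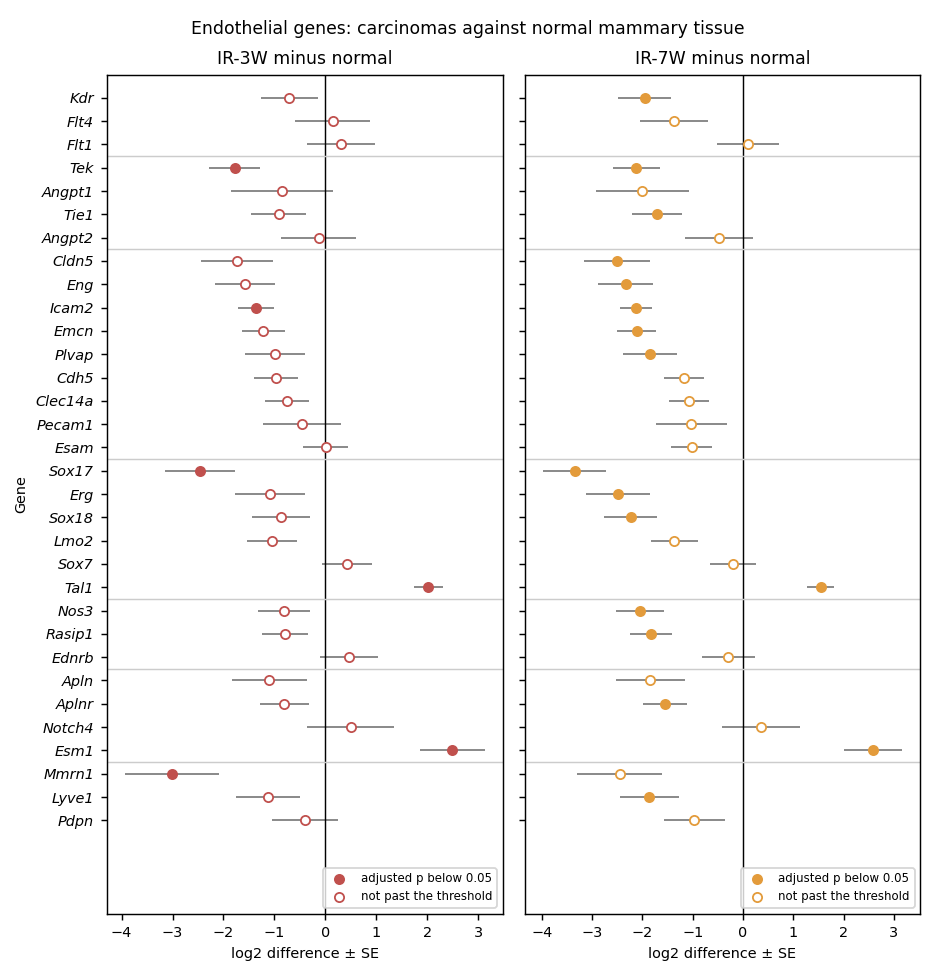
Log2 differences with SE (bars) of the 32 endothelial genes, IR-3W minus normal on the left and IR-7W minus normal on the right, grouped by role; filled points passed the adjusted threshold of 0.05. In the IR-7W panel 15 filled points lie left of 0 and 2 right of it; in the IR-3W panel 4 lie left and 2 right.

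Among the VEGF receptors, Kdr is the main receptor for VEGF-A on blood endothelium. Its level was 3.22, 3.54, 6.31 and 4.52 in IR-3W carcinomas, 2.80 to 3.50 with a median of 3.13 in IR-7W carcinomas, and 5.16, 4.75 and 5.40 in normal tissue. All 6 IR-7W arrays lay below all 3 normal arrays, while IR-3W array 3 lay above them. Kdr fell by 1.96 ± 0.52 in IR-7W carcinomas (3.88-fold, adjusted p = 0.0196), and in IR-3W carcinomas its difference was -0.71 ± 0.57 (adjusted p = 0.44). Flt1, a VEGF receptor that also acts as a decoy, did not pass in either group, with differences of 0.30 ± 0.67 in IR-3W and 0.11 ± 0.62 in IR-7W carcinomas. A second probe of Flt1 gave 0.43 and 0.06. Flt4, the receptor for VEGF-C on lymphatic endothelium, passed the scanner software's test for signal well above background on 3 of 4 IR-3W, 1 of 6 IR-7W and 0 of 3 normal arrays, so no fold against normal tissue is given. Its levels were -5.90, -4.60, -3.89 and -3.46 in IR-3W carcinomas and -7.26 to -3.78 with a median of -6.19 in IR-7W carcinomas.

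In the angiopoietin and Tie system, both receptors fell in IR-7W carcinomas and neither ligand passed (8.85% of all genes fell and 12% rose). Tek, the angiopoietin receptor also called Tie2, had levels of -4.60, -5.61, -3.09 and -3.71 in IR-3W carcinomas, -5.33 to -3.97 with a median of -4.45 in IR-7W carcinomas, and -2.41, -2.42 and -2.60 in normal tissue. All carcinoma arrays of both groups lay below the normal arrays. The difference of Tek was -1.78 ± 0.50 in IR-3W (3.42-fold lower, adjusted p = 0.0321) and -2.12 ± 0.46 in IR-7W carcinomas (4.35-fold lower, adjusted p = 0.00683). Tek was well above background on 3 of 4 IR-3W, 4 of 6 IR-7W and 3 of 3 normal arrays. A second Tek probe, well above background on 0 arrays, gave -1.61 in IR-3W and -1.89 in IR-7W carcinomas, so its background-level signal also read lower there. The IR-3W call of Tek was lost in 9 of 16 alternatives, among them the deposited values and normexp background correction (-0.65, adjusted p = 0.296). Tie1, its partner receptor, had levels of -3.10, -2.67, -2.21 and -1.42 in IR-3W carcinomas, -3.81 to -1.57 with a median of -3.43 in IR-7W carcinomas, and -1.17, -1.16 and -1.95 in normal tissue. It fell by 1.70 ± 0.50 in IR-7W carcinomas (3.26-fold, adjusted p = 0.0286), with 1 IR-7W array among the normal values, and a second probe gave -1.39. In IR-3W carcinomas the difference of Tie1 was -0.92 ± 0.54 (adjusted p = 0.278). Angpt1, the ligand that activates Tek, stood at -2.10, -1.62, 2.01 and -0.12 in IR-3W carcinomas, -3.98 to 0.15 with a median of -1.32 in IR-7W carcinomas, and -0.10, 0.58 and 0.69 in normal tissue. Its groups overlapped, and its differences were -0.85 ± 0.996 in IR-3W and -2.00 ± 0.92 in IR-7W carcinomas (adjusted p = 0.612 and 0.143). Angpt2, which endothelial cells release and which can oppose Angpt1, had differences of -0.13 ± 0.74 in IR-3W and -0.48 ± 0.68 in IR-7W carcinomas. Its 3 probes disagreed in sign in both comparisons, with 0.00, 0.96 and -0.13 in IR-3W and -0.22, 0.72 and -0.48 in IR-7W carcinomas.

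Junction and surface proteins were the largest role group, and all 9 tested lay below 0 in IR-7W carcinomas, where 5 fell. Over all genes 12917 of 25343 lay below 0 there and 8.85% fell. Icam2, an adhesion molecule of resting endothelium, had levels of -1.72, -1.95, -1.14 and -1.22 in IR-3W carcinomas, -3.16 to -1.77 with a median of -2.22 in IR-7W carcinomas, and 0.33, -0.27 and -0.47 in normal tissue. Its carcinoma and normal arrays did not overlap. Icam2 fell by 1.37 ± 0.35 in IR-3W (2.58-fold, adjusted p = 0.0205) and fell by 2.12 ± 0.32 in IR-7W carcinomas (4.36-fold, adjusted p = 0.000665). Emcn, a sialomucin of capillaries and veins, had levels of -0.74, -1.04, 0.84 and 0.22 in IR-3W carcinomas, -1.54 to -0.57 with a median of -1.05 in IR-7W carcinomas, and 0.71, 1.10 and 1.31 in normal tissue. Of the carcinoma arrays, IR-3W array 3 alone reached the normal range. The difference of Emcn in IR-7W carcinomas was -2.12 ± 0.39 (4.34-fold lower, adjusted p = 0.00241), beside -1.22 ± 0.42 in IR-3W carcinomas (adjusted p = 0.0709).

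Cldn5, the claudin of tight vessel walls, had levels of -0.30, -1.39, -0.76 and 1.02 in IR-3W carcinomas, -2.55 to 0.33 with a median of -1.33 in IR-7W carcinomas, and 1.67, 1.65 and 0.78 in normal tissue. All IR-7W arrays lay below the normal arrays, and the difference was -2.51 ± 0.65 (5.68-fold lower, adjusted p = 0.0173). In IR-3W carcinomas it was -1.73 ± 0.71 (adjusted p = 0.122). Plvap forms the diaphragms of fenestrated capillaries. Its levels were -3.25, -1.75, -0.72 and -0.84 in IR-3W carcinomas, -3.38 to -1.60 with a median of -2.40 in IR-7W carcinomas, and -0.13, -0.52 and -1.31 in normal tissue. Plvap fell by 1.85 ± 0.54 in IR-7W carcinomas (3.6-fold, adjusted p = 0.0299) without overlap, beside -0.99 ± 0.59 in IR-3W carcinomas (adjusted p = 0.286). Eng, endoglin, is a co-receptor for TGF-beta family ligands. It had levels of -0.20, -0.20, 1.33 and 0.70 in IR-3W carcinomas, -1.03 to 0.42 with a median of -0.31 in IR-7W carcinomas, and 3.13, 2.40 and 0.42 in normal tissue. Normal array 3 lay at the top of the IR-7W range while the other two stood well above it. Eng fell by 2.33 ± 0.54 in IR-7W carcinomas (5.03-fold, adjusted p = 0.0097), beside -1.58 ± 0.59 in IR-3W carcinomas (adjusted p = 0.0919).

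The other 4 genes of this role group passed in neither carcinoma group. Cdh5, VE-cadherin, had levels of -4.80, -4.77, -3.11 and -3.58 in IR-3W carcinomas, -5.00 to -3.86 with a median of -4.21 in IR-7W carcinomas, and -2.91, -2.87 and -3.51 in normal tissue. Its IR-7W and normal arrays did not overlap, but the difference of -1.17 ± 0.39 missed the threshold (adjusted p = 0.0503). Pecam1, CD31, overlapped between all groups, with differences of -0.46 ± 0.77 in IR-3W and -1.03 ± 0.71 in IR-7W carcinomas (adjusted p = 0.733 and 0.332). Its probe was dim, at -4.10, -3.17 and -2.27 in normal tissue, and was well above background on 2 of 3 normal arrays. Clec14a, an endothelial C-type lectin, had differences of -0.75 ± 0.43 in IR-3W and -1.08 ± 0.39 in IR-7W carcinomas (adjusted p = 0.262 and 0.0695), and its second probe gave -0.48 and -0.94. Esam, an adhesion molecule of endothelial tight junctions, stood at 0.51, 0.48, 1.78 and 1.61 in IR-3W carcinomas, -0.42 to 1.08 with a median of -0.23 in IR-7W carcinomas, and 1.36, 0.92 and 0.99 in normal tissue. Its differences were 0.00 ± 0.44 in IR-3W and -1.02 ± 0.41 in IR-7W carcinomas (adjusted p = 0.997 and 0.0924).

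**Figure D2:**
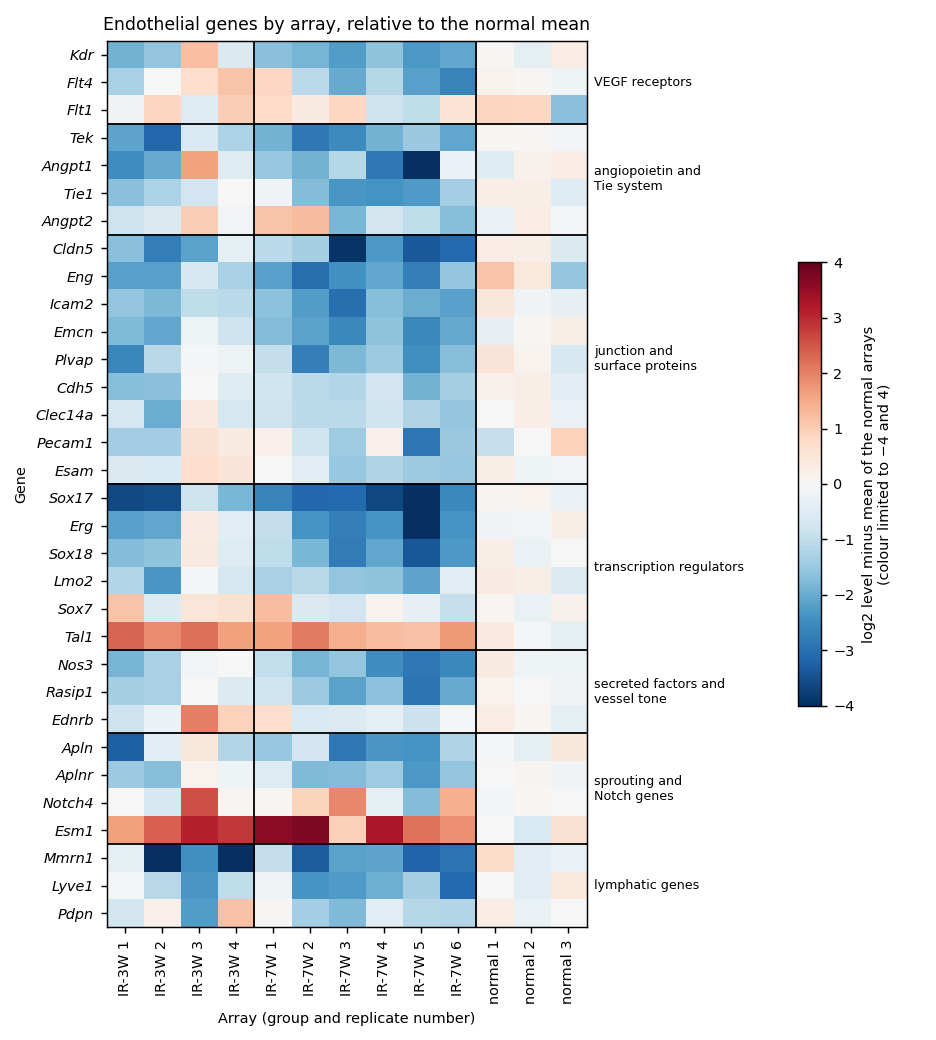
Level of each of the 32 tested endothelial genes on each of the 13 arrays, as the log2 level minus the gene's mean over the 3 normal arrays, with colours limited to -4 and 4. Blue is lower and red higher than normal tissue; IR-3W arrays 1 and 2 and IR-7W arrays 2 to 6 are mostly blue, IR-3W array 3 is pale or red for many genes, and Esm1 and the brightest probe of Tal1 are red on all carcinoma arrays.

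Of 6 transcription regulators, 3 fell in IR-7W and 1 fell in IR-3W carcinomas (8.85% and 5.35% over all genes). Tal1 passed as higher in both (12% and 9.25% over all genes) on a probe that another of its probes contradicted. Sox17 is the SOX factor of arterial endothelium, and its levels were -3.93, -3.87, -1.13 and -2.13 in IR-3W carcinomas, -5.29 to -2.89 with a median of -3.43 in IR-7W carcinomas, and -0.20, -0.16 and -0.58 in normal tissue. Every carcinoma array lay below every normal array. The difference was -2.45 ± 0.69 in IR-3W (5.48-fold lower, adjusted p = 0.0308) and -3.35 ± 0.64 in IR-7W carcinomas (10.2-fold lower, adjusted p = 0.00289). With normexp background correction it was -1.04 and -2.09 (adjusted p = 0.0186 and 1.6e-05). A second Sox17 probe, well above background on 0 arrays, gave -2.17 in IR-3W and -2.20 in IR-7W carcinomas, so its background-level signal also read lower there. Sox18, a related factor of blood and lymphatic vessel formation, stood at 0.61, 0.73, 2.68 and 1.80 in IR-3W carcinomas, -1.07 to 1.32 with a median of 0.15 in IR-7W carcinomas, and 2.58, 2.05 and 2.35 in normal tissue. IR-3W array 3 exceeded all normal arrays, and all IR-7W arrays lay below them. Sox18 fell by 2.23 ± 0.52 in IR-7W carcinomas (4.71-fold, adjusted p = 0.0099), with -2.08 from a second probe, beside -0.87 ± 0.57 in IR-3W carcinomas (adjusted p = 0.331). Sox7, of the same SOX group, did not pass, with 0.42 ± 0.49 in IR-3W and -0.20 ± 0.46 in IR-7W carcinomas.

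Erg is an ETS factor that keeps endothelial identity. Its levels were -3.10, -3.02, -0.59 and -1.40 in IR-3W carcinomas, -4.99 to -1.89 with a median of -3.33 in IR-7W carcinomas, and -1.09, -1.04 and -0.68 in normal tissue. It fell by 2.48 ± 0.63 in IR-7W carcinomas without overlap (5.58-fold, adjusted p = 0.0153), beside -1.09 ± 0.68 in IR-3W carcinomas (adjusted p = 0.312). Lmo2, an adaptor of blood and endothelial transcription complexes, had differences of -1.05 ± 0.50 in IR-3W and -1.36 ± 0.46 in IR-7W carcinomas and passed in neither (adjusted p = 0.182 and 0.0537). Tal1, a partner of Lmo2, is given as values only. Its brightest probe had levels of -3.34, -3.78, -3.46 and -4.04 in IR-3W carcinomas, -4.52 to -3.60 with a median of -4.14 in IR-7W carcinomas, and -5.29, -5.72 and -6.03 in normal tissue. That probe was well above background on 4 of 4 IR-3W, 5 of 6 IR-7W and 0 of 3 normal arrays, so it passed the filter on dim probes through the carcinomas alone, and no fold is given. The direction for the gene was not settled. A second Tal1 probe differed by -1.39 in IR-3W and -1.22 in IR-7W carcinomas, the other probe by 0.66 and 0.73, and with normexp background correction the brightest probe gave -0.06 and -1.03 (adjusted p = 0.927 and 0.00848).

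**Figure D3:**
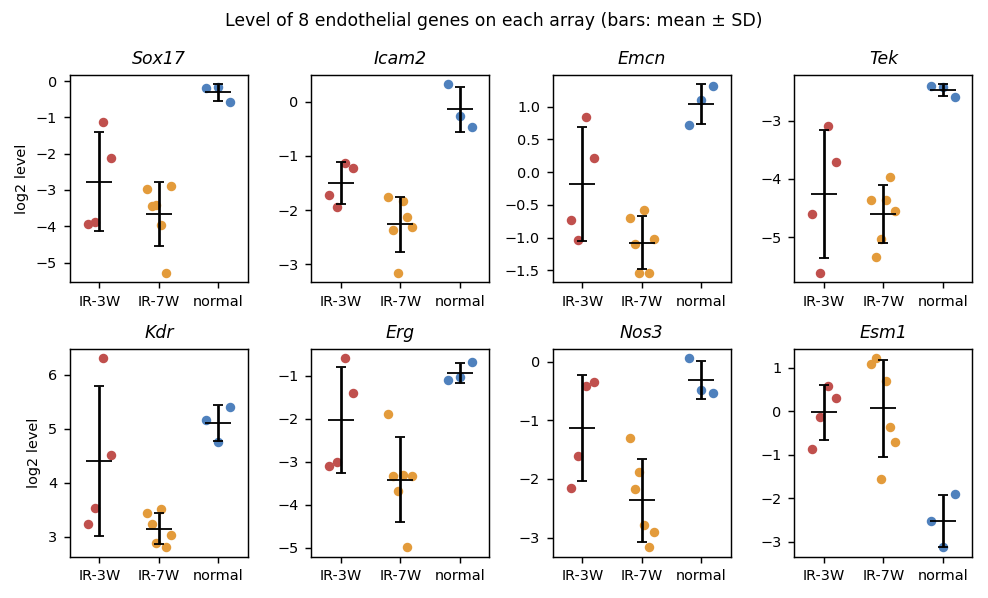
Log2 level of 8 endothelial genes on each array, as 1 point per array, with bars for the mean and SD of each group (IR-3W, n = 4; IR-7W, n = 6; normal, n = 3); each panel has its own vertical axis. For Sox17, Icam2 and Tek all carcinoma points lie below the normal points, for Kdr, Erg and Emcn the IR-3W points reach the normal range, and for Esm1 all carcinoma points lie above.

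Of 3 tested genes of vessel tone and lumen, 2 fell in IR-7W carcinomas (8.85% over all genes). In IR-3W carcinomas 0 passed (14.6% over all genes), and 0 had an unadjusted p below 0.05 by limma (29.6% over all genes). Nos3, which makes nitric oxide in endothelium, stood at -2.16, -1.61, -0.41 and -0.34 in IR-3W carcinomas, -3.17 to -1.30 with a median of -2.48 in IR-7W carcinomas, and 0.06, -0.48 and -0.53 in normal tissue. Its IR-3W arrays 3 and 4 lay within the normal range, and all IR-7W arrays lay below it. Nos3 fell by 2.05 ± 0.48 in IR-7W carcinomas (4.15-fold, adjusted p = 0.00932), beside -0.81 ± 0.51 in IR-3W carcinomas (adjusted p = 0.317). Rasip1, a Ras-interacting protein needed for vessel lumens, stood at 0.25, 0.30, 1.59 and 1.04 in IR-3W carcinomas, -1.33 to 0.78 with a median of -0.23 in IR-7W carcinomas, and 1.71, 1.60 and 1.45 in normal tissue. It fell by 1.82 ± 0.42 in IR-7W carcinomas without overlap (3.54-fold, adjusted p = 0.00859), beside -0.79 ± 0.45 in IR-3W carcinomas (adjusted p = 0.265). Ednrb, an endothelin receptor, had differences of 0.47 ± 0.57 in IR-3W and -0.29 ± 0.53 in IR-7W carcinomas and passed in neither.

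Of 4 tested sprouting and Notch genes, Esm1 rose in both groups and Aplnr fell in IR-7W carcinomas. Over all genes 9.25% rose in IR-3W carcinomas, and 12% rose and 8.85% fell in IR-7W carcinomas. Esm1, endocan, is a secreted proteoglycan that marks the tip cells of sprouting vessels. It had levels of -0.86, -0.14, 0.59 and 0.31 in IR-3W carcinomas, -1.56 to 1.22 with a median of 0.17 in IR-7W carcinomas, and -2.53, -3.12 and -1.91 in normal tissue. Every carcinoma array lay above every normal array. Esm1 rose by 2.49 ± 0.63 in IR-3W (5.63-fold, adjusted p = 0.0196) and by 2.58 ± 0.59 in IR-7W carcinomas (6.00-fold, adjusted p = 0.00821), and its second probe gave 2.19 and 2.52. With normexp background correction the differences of Esm1 were 1.29 in IR-3W and 1.41 in IR-7W carcinomas (adjusted p = 0.18 and 0.0187). Aplnr, the apelin receptor, stood at -2.19, -2.42, -0.59 and -0.89 in IR-3W carcinomas, -3.01 to -1.23 with a median of -2.35 in IR-7W carcinomas, and -0.70, -0.60 and -0.85 in normal tissue. Its IR-7W and normal arrays did not overlap, and it fell by 1.54 ± 0.44 there (2.91-fold, adjusted p = 0.0254), beside -0.80 ± 0.47 in IR-3W carcinomas (adjusted p = 0.282). Apln, the apelin peptide, is another tip cell gene. It had differences of -1.10 ± 0.74 in IR-3W and -1.84 ± 0.68 in IR-7W carcinomas (adjusted p = 0.346 and 0.0725), with -0.97 and -2.23 from its second probe. Notch4, an endothelial Notch receptor, varied widely among carcinomas, from 1.95 to 5.17 on IR-3W and from 0.86 to 4.53 on IR-7W arrays, around 2.50, 2.68 and 2.61 in normal tissue, and passed in neither group (0.49 ± 0.85 and 0.36 ± 0.78).

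Of the lymphatic genes, 3 were tested and all lay below 0 in both groups. Over all genes 12772 of 25343 lay below 0 in IR-3W and 12917 of 25343 in IR-7W carcinomas, where 5.35% and 8.85% fell. Lyve1, a hyaluronan receptor of lymphatic vessels that some macrophages also carry, stood at -0.11, -1.19, -2.40 and -1.08 in IR-3W carcinomas, -3.17 to -0.22 with a median of -2.18 in IR-7W carcinomas, and -0.07, -0.48 and 0.34 in normal tissue. Of the IR-7W arrays, 1 lay among the normal values. Lyve1 fell by 1.86 ± 0.59 in IR-7W carcinomas (3.63-fold, adjusted p = 0.04), with -1.79 from a dimmer second probe, beside -1.13 ± 0.63 in IR-3W carcinomas (adjusted p = 0.259). The IR-7W call of Lyve1 was lost in 9 of 19 alternatives. Among these were the mean of its probes (-1.82, adjusted p = 0.0575) and the fits without any 1 normal array. Mmrn1, multimerin, is made by platelets and lymphatic endothelium. Its levels were -2.76, -6.49, -4.84 and -7.53 in IR-3W carcinomas, -5.73 to -3.33 with a median of -4.95 in IR-7W carcinomas, and -1.67, -2.84 and -2.66 in normal tissue. Mmrn1 was well above background on 1 of 4 IR-3W, 3 of 6 IR-7W and 3 of 3 normal arrays, so most IR-3W values are at background level and no fold is given. Its difference of -3.02 ± 0.92 passed in IR-3W carcinomas (adjusted p = 0.0449), although 1 IR-3W array overlapped normal tissue. The call was lost in 8 of 16 alternatives, among them without any 1 normal array, IR-3W array 2 or IR-3W array 4, and the difference ran from -5.35 with the deposited values to -0.74 with normexp (adjusted p of 0.0031 to 0.266 over the 16). In IR-7W carcinomas it was -2.45 ± 0.85 (adjusted p = 0.0584). Pdpn, podoplanin, also occurs on fibroblasts and myoepithelial cells, and its differences were -0.40 ± 0.65 in IR-3W and -0.97 ± 0.60 in IR-7W carcinomas. Prox1, not well above background anywhere, read -7.78 to -6.00 on IR-3W, -7.93 to -6.66 on IR-7W and -6.05 to -5.20 on normal arrays. Signals at background level thus also read higher on normal arrays.

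The age at irradiation was addressed by setting IR-3W against IR-7W carcinomas. No endothelial gene passed the test there, where 0.738% of all genes did (0.588% higher and 0.15% lower). By limma, 9 of the 32 genes had an unadjusted p below 0.05, as did 12.4% of all genes. The difference lay above 0 for 30 of 32 genes, with a median of 0.75 (range -0.56 to 1.51) beside 0.00 over all genes. The ends of that range, Flt4 and Mmrn1, came from genes seldom well above background in the carcinomas (4 of 10 arrays each) and are not ranked. The difference was 1.39 ± 0.58 for Erg (adjusted p = 0.347) and -0.09 ± 0.53 for Esm1. The 95% intervals were 0.30 to 2.18 for Nos3, 0.33 to 2.40 for Sox18 and 0.21 to 2.29 for Kdr, whose adjusted p were 0.248, 0.248 and 0.301. The arrays of the carcinoma groups overlapped for all 32 genes, where over all genes 1.57% lay wholly higher and 1.34% wholly lower in IR-3W carcinomas.

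The excess in IR-3W carcinomas changed with the arrays kept. Slide 2 held arrays of both groups, IR-3W arrays 1 and 2 and IR-7W arrays 1 and 5, and within it 18 of 32 genes lay above 0, with a median of 0.11 (range -0.94 to 0.73). Within slide 2 the difference of Kdr was 0.27, of Erg 0.38 and of Tek -0.94. IR-3W arrays 3 and 4 lay on a slide without other groups, and IR-7W arrays 2, 3, 4 and 6 on another. With slide as a fixed block among carcinomas, and within slide 2, 0 of all 25344 genes passed between the carcinoma groups. Slide 2 alone holds both groups, so both fits take the difference from 2 arrays a group. They cannot tell whether a call would hold. Without IR-3W array 3, 24 of 32 genes lay above 0, with a median of 0.45. With normexp background correction 15 of the 32 genes passed as higher in IR-3W carcinomas, as did 26.9% of all genes, under a correction that also moved the median of all genes to 0.39.

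**Figure D4:**
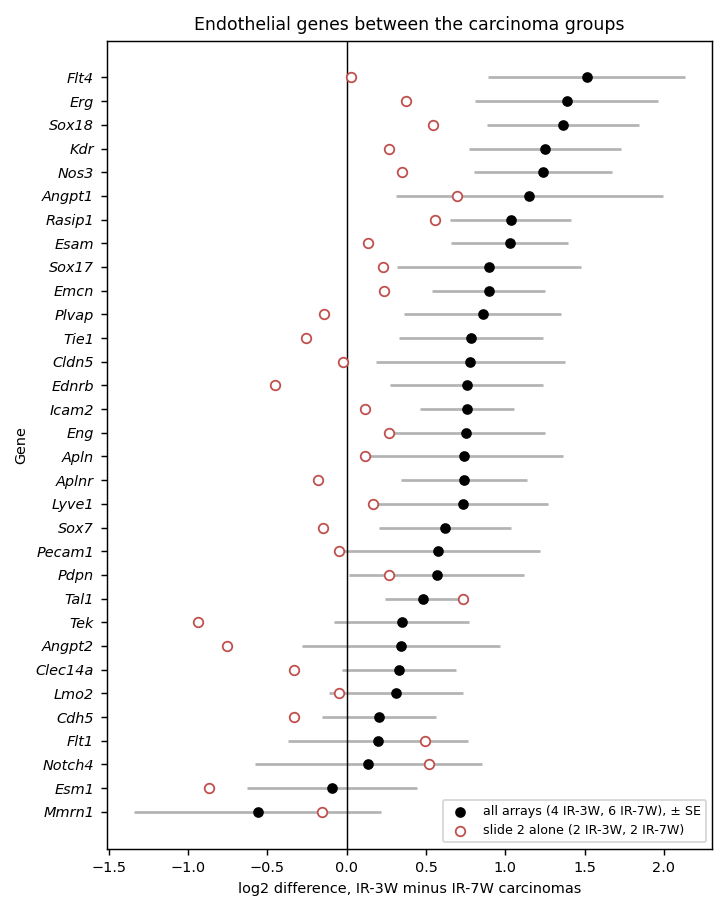
Log2 difference, IR-3W minus IR-7W carcinomas, of the 32 endothelial genes, from all carcinoma arrays (filled, with SE) and from slide 2 alone (open; 2 arrays a group). Filled points lie right of 0 for 30 genes and open points for 18.

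The carcinomas differed among themselves. IR-3W array 3 held the highest carcinoma level for 20 of the 32 genes and exceeded all normal arrays for 15, and IR-3W array 4 exceeded them for 8. IR-3W arrays 1 and 2 lay below all normal arrays for 25 and 26 genes. IR-7W array 5 held the lowest carcinoma level for 15 genes and lay below all normal arrays for 29, and IR-7W array 1 lay below them for 19. The matching shares over all genes were not taken array by array, so these counts are not read as a trait of the endothelial genes. Each gene's level minus its mean over the 13 arrays gave a median over the 32 genes of -0.47, -0.43, 1.10 and 0.56 in IR-3W carcinomas, -1.18 to 0.29 in IR-7W carcinomas, and 1.08, 1.03 and 0.70 in normal tissue.

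Markers of other cells moved beside these values. Over all genes, 9.25% rose and 5.35% fell in IR-3W carcinomas, and 12% rose and 8.85% fell in IR-7W carcinomas. Between the carcinoma groups 0.588% were higher and 0.15% lower in IR-3W carcinomas. All 11 adipocyte genes tested fell in IR-7W carcinomas and 10 fell in IR-3W carcinomas. Their median by array was -1.64, -1.73, 1.45 and -1.31 in IR-3W carcinomas, -1.63 to -0.95 in IR-7W carcinomas, and 3.39, 3.32 and 3.89 in normal tissue, so IR-3W array 3 was also the highest carcinoma for fat markers. Of 9 fibroblast genes, 4 rose in IR-3W carcinomas, 4 fell in IR-7W carcinomas, and 5 were higher in IR-3W than in IR-7W carcinomas, among them Col3a1 (2.90 ± 0.40, adjusted p = 0.0149) and Dcn (1.55 ± 0.25, adjusted p = 0.0225). None of the calls between the carcinoma groups was kept with slide as a fixed block. That fit passed 0 of all 25344 genes, so it cannot tell whether a call would hold. The fibroblast median was 0.67 to 1.48 on IR-3W, -1.29 to 0.23 on IR-7W and -0.10 to 0.04 on normal arrays. Of 13 epithelial genes, 1 rose in each carcinoma group. Lymphocyte genes passed in 0 of 9 cases in IR-3W (1 at an unadjusted p below 0.05 by limma) and in 1 of 9 in IR-7W carcinomas, where Ptprc fell. Macrophage genes, 12 in all, gave 1 higher and 1 lower in IR-3W and 3 lower in IR-7W carcinomas. Erythroid and platelet genes, 6 in all, gave 1 higher in IR-3W carcinomas, the platelet gene Gp1bb. The part of fat, fibroblast and other cells in the endothelial differences was not tested.

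**Figure D5:**
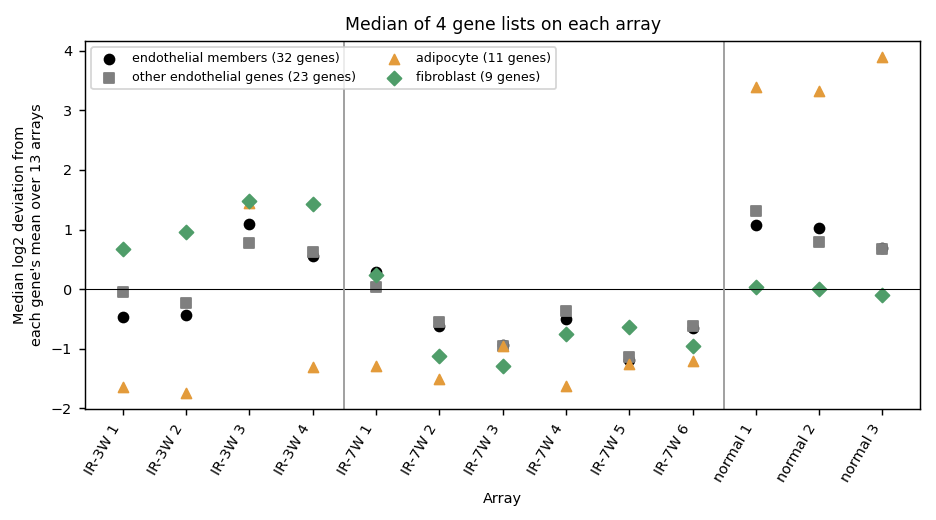
Median over the genes of 4 lists of the log2 level minus each gene's mean over the 13 arrays, for each array. Endothelial medians run up to 1.10 on IR-3W and up to 0.29 on IR-7W arrays, beside 0.70 to 1.08 on normal arrays; adipocyte medians are 3.32 to 3.89 on normal arrays and at most 1.45 on carcinoma arrays; fibroblast medians are positive on all IR-3W arrays.

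Other genes of the same vessels were read beside these, from lists of the pathway that were also chosen with earlier results of these data known. The shares over all genes were 8.85% lower and 12% higher in IR-7W, and 5.35% lower and 9.25% higher in IR-3W carcinomas. Of 23 further endothelial genes tested, 14 fell and 0 rose in IR-7W carcinomas, among them Procr, the endothelial protein C receptor (-1.96 ± 0.25, adjusted p = 0.000176), Cyyr1 (-2.52 ± 0.35, adjusted p = 0.000345), the anticoagulant receptor Thbd (-2.32 ± 0.41, adjusted p = 0.00179) and the proton-sensing receptor Gpr4 (-2.37 ± 0.44, adjusted p = 0.00259). In IR-3W carcinomas 2 of the 23 fell, Cyyr1 (-1.75 ± 0.38, adjusted p = 0.00848) and Thbd (-1.46 ± 0.44, adjusted p = 0.0438). There 2 rose, the venous factor Nr2f2, which stromal cells also express (3.14 ± 0.46, adjusted p = 0.000686), and the adrenomedullin receptor partner Ramp3 (1.49 ± 0.45, adjusted p = 0.0434). Between the carcinoma groups all 23 lay above 0, and Procr (1.17 ± 0.23, adjusted p = 0.0398) and Nr2f2 (1.93 ± 0.39, adjusted p = 0.0419) were higher in IR-3W than in IR-7W carcinomas. Slide and group partly coincide there, and neither call was kept with slide as a fixed block among carcinomas. As 0 of all 25344 genes passed in that fit, it cannot decide on these calls.

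Of 6 ligands and co-receptors of the VEGF receptors tested, 1 rose in IR-3W carcinomas (9.25% over all genes). In IR-7W carcinomas 1 rose and 1 fell (12% and 8.85% over all genes). Vegfa, the ligand of Kdr, rose in IR-3W carcinomas (1.83 ± 0.56, adjusted p = 0.0457), and its difference in IR-7W carcinomas was 0.71 ± 0.52 (adjusted p = 0.363). Pgf, placental growth factor and a ligand of Flt1, rose in IR-7W carcinomas (2.67 ± 0.88, adjusted p = 0.0482), beside 2.15 ± 0.95 in IR-3W carcinomas (adjusted p = 0.152). Vegfd, a ligand of Flt4, fell in IR-7W carcinomas (-2.04 ± 0.49, adjusted p = 0.0119). The other 3 of the 6 ligands and co-receptors tested passed in neither comparison with normal tissue.

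Pericytes and smooth muscle cells wrap vessels. Of 15 such genes 1 rose and 3 fell in IR-3W carcinomas (9.25% and 5.35% over all genes), and 1 rose and 2 fell in IR-7W carcinomas (12% and 8.85%). The gene that rose in both was Notch3, a Notch receptor of mural cells (3.79 ± 0.47 in IR-3W, adjusted p = 0.000299, and 3.55 ± 0.40 in IR-7W carcinomas, adjusted p = 0.000119). Those that fell were the contractile genes Cnn1, Lmod1 and Myh11 in IR-3W carcinomas, which myoepithelial cells also express in part, and the pericyte surface genes Cspg4 and Mcam in IR-7W carcinomas. Between the carcinoma groups Pdgfrb was higher (1.97 ± 0.41, adjusted p = 0.0493) and Cnn1 lower (-2.27 ± 0.44, adjusted p = 0.0398) in IR-3W carcinomas. With slide as a fixed block these calls were not kept, but 0 of all 25344 genes passed in that fit, so it cannot decide on them.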

How the data were processed

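The deposited scanner output, made with Agilent Feature Extraction 10.7.3.1 on 1-colour arrays, gave 1 background-subtracted intensity a spot (processed green signal), per the file headers. A deposited table of log2 values, its scale and centring not stated in the sources used here, matched the log2 signal minus the 75th percentile of the array minus the mean of the normal arrays within 0.01 for 99.4 to 99.6% of values, after removal of 1 constant per array (-0.0335 to 0.0125). Its medians were -0.20 to 0.05, and it served as an alternative. Control spots (1639 of 45018) and outlier spots were left out. The log2 processed signal minus the 75th percentile of each array was averaged over spots of a probe. Probes well above background on at least 3 arrays were kept (29290 of 41012), and the brightest probe of a gene was used. Symbols came through RefSeq accessions and a gene table of assembly GRCr8 for 16815 probes, and 24197 probes kept their accession. A single linear model over all 13 arrays was fitted by lmFit and eBayes of limma 3.58.1, under R 4.3.3 (files were read by the data.table package, version 1.17.8). Its p-values, two-sided, were corrected over all genes by the Benjamini-Hochberg method, with 0.05 as the threshold.

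No fold is given for members well above background on none or few arrays of a group (Flt4, Tal1, Mmrn1). Every tested member may be named; of other lists, up to 4 genes with the smallest p per comparison. The members and lists were chosen with earlier results of these data known. On simulated data of 24876 genes the fit recovered, at log2 differences of 1, 2, 3 and 4, in IR-3W against normal 2, 46, 80 and 80%, in IR-7W against normal 12, 52, 80 and 98%, and in IR-3W against IR-7W 14, 70, 80 and 94%. Only 50 genes of each size were changed there, and the simulated noise held no slide or scanner differences. A far larger share of genes was called against normal tissue, so these rates describe the simulated setting and not the comparisons themselves. Alternatives covered background correction, scaling, filter, probe choice, array weights, slide, replicate block and left-out arrays. The number of arrays limits the precision.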

Additional observations from a re-analysis of the deposited data

How the results depend on the processing

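The number of endothelial genes called in IR-3W carcinomas against normal tissue was 6, and it moved to 2 with normexp background correction, 2 among genes well above background on all arrays, 10 with array weights, 2 with only the compared groups in the fit and 1 with the replicate block, and ranged from 1 to 11 when each replicate was left out in turn. The 17 calls in IR-7W carcinomas (12% higher and 8.85% lower over all genes) became 5 with the replicate block (6.01% and 3.03%). They were within 1.5 times of 17 under the other settings. Leaving out each replicate in turn gave 9 to 20, while the calls over all genes ran from 3038 to 4811. Between the carcinoma groups 0 endothelial genes passed in every setting run, replicates left out included (0 in all 10 such fits), except normexp. Normexp called 15 (26.9% higher and 2.6% lower over all genes). The replicate numbers of the titles did not pair the samples: the residual correlation of same-numbered arrays ran from -0.21 to 0.08. Lost calls under the block are not read as weaker effects, although the tallies of lost calls given per gene include them. The intensities that the planned normexp needed were not among the columns, so spot medians were used, a choice made after seeing the data. It moved the median of all genes to -0.21 (IR-3W against normal), -0.55 (IR-7W against normal) and 0.39 (IR-3W against IR-7W). Over all genes, the calls in IR-7W against normal were 2055 higher and 10665 lower with normexp and 3426 higher and 10347 lower with no filter on dim probes, beside 3031 higher and 2243 lower. In IR-3W against normal the matching calls were 779 higher and 401 lower with normexp and 2762 higher and 8298 lower with no filter, beside 2343 higher and 1356 lower. In IR-3W against IR-7W they were 6807 higher and 658 lower with normexp, beside 149 higher and 38 lower. Dim probes and 3 normal arrays limit the precision, and the cause of each change was not tested.

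Signs turned in these cases. In IR-3W against normal, normexp gave Angpt2 0.12, Flt1 -0.032, Flt4 -0.33 and Tal1 -0.058, the deposited values gave Esam -0.014 and Flt4 -1.33, the mean of probes gave Angpt2 0.27, array weights gave Pdpn 0.62, and the replicate block gave Esam -0.015. In IR-7W against normal, normexp gave Flt1 -0.47 and Tal1 -1.03, quantile normalization gave Flt1 -0.042, the mean of probes gave Angpt2 0.0094, array weights gave Flt1 -0.079, and the replicate block gave Angpt2 0.077. In IR-3W against IR-7W, normexp gave Mmrn1 0.88 and Notch4 -0.054, array weights gave Esm1 0.25 and Notch4 -0.68, and the replicate block gave Angpt2 -0.10, Cdh5 -0.017, Notch4 -0.12 and Pecam1 -0.0087. With slide as a fixed block, and equally within slide 2, Angpt2 was -0.75, Aplnr -0.18, Cdh5 -0.33, Cldn5 -0.021, Clec14a -0.33, Ednrb -0.45, Lmo2 -0.048, Pecam1 -0.048, Plvap -0.14, Sox7 -0.15, Tek -0.94 and Tie1 -0.26.

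Leaving out each replicate in turn turned the sign in IR-3W against normal for Angpt2 (-0.50 to 0.10), Ednrb (-0.044 to 0.90), Esam (-0.22 to 0.21), Flt1 (-0.54 to 0.72), Flt4 (-0.19 to 0.62), Notch4 (-0.20 to 0.87) and Pdpn (-0.93 to 0.21), and in IR-7W against normal for Flt1 (-0.73 to 0.53). In IR-3W against IR-7W it did so for Angpt2 (-0.026 to 0.69), Cdh5 (-0.11 to 0.45), Clec14a (-0.053 to 0.74), Esm1 (-0.42 to 0.19), Flt1 (-0.032 to 0.46), Lmo2 (-0.023 to 0.74), Mmrn1 (-1.44 to 0.15), Notch4 (-0.56 to 0.52) and Tek (-0.042 to 0.80).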
